A study of Homo sapiens with 4 samples.

Results

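The 8 genes described here encode the multi-domain members of the BCL2 family, namely the survival proteins BCL2, BCL2L1 (BCL-X), BCL2L2 (BCL-W), MCL1 and BCL2A1 (BFL1) and the effectors BAX, BAK1 and BOK. They were taken as all probes of the array that the scanner files name for 1 of these genes, or whose accession is a RefSeq transcript of it. The 8 genes stand among 19614 gene symbols that could be matched to RefSeq. This gave 16 probes of 50238, with 10 for the 5 survival genes and 6 for the 3 effectors. The accession of 13 of them is a transcript of the gene in the RefSeq table, and the other 3 were taken by the symbol in the files.

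Gene expression was measured in A549, a human lung adenocarcinoma cell line, with 2 untreated control samples and 2 samples treated with embelin, a plant benzoquinone, at 15 µM for 4 h. Cultures of both groups had been moved to low-serum medium before the treatment, and each sample was labelled with Cy3 and hybridized to 1 array of 1 slide. The question put to these data was which pathways take part in the early apoptosis that embelin induces. The labels do not say whether the samples came from separate cultures, so the p-values measure only the spread between these samples, which may be technical.

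Survival proteins and effectors meet at the outer membrane of mitochondria. BAX and BAK1 open this membrane when they are activated and so release cytochrome c, and the survival proteins hold them, and the BH3-only proteins that activate them, in check. Abundance, location and binding of the proteins decide this balance, and arrays measure only the transcripts. For MCL1 both the transcript and the protein are short-lived, so that its level depends on transcription and also on turnover of the protein.

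Of the probes, all designed 60-base oligonucleotides, 4 are shown. Those of MCL1 and BCL2L1 are shown for the transcripts they are listed for. That of BCL2A1 is shown because its value differed from that of the gene's other probe, and that of BAX for its run of G. They are given 5′ to 3′ as the scanner files hold them. In the probe for BAX the capitals mark a run of 8 G, a stretch of the coding sequence known for frameshifts in tumours with faulty mismatch repair. Only 1 of the 50238 probes on the array holds such a run on the strand printed (0.00199%).
MCL1 P319635: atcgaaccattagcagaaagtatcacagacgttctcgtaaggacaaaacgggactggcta
BCL2A1 P152002: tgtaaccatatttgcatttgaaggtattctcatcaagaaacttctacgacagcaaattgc
BCL2L1 P100130: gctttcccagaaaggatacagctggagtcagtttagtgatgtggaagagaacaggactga
BAX P346311: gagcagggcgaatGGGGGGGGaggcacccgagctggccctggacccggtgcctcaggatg

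The first of these is the MCL1 probe that the files list for NM_021960, the transcript of the long survival form, and not for NM_182763, that of the short form, which lacks an exon and is known to promote cell death. The other MCL1 probes are listed for both transcripts. The BCL2L1 probe printed above is listed for NM_001191, the transcript of the short BCL-XS form, but not for NM_138578, that of BCL-XL. As the stretch it reads lies in coding sequence that both forms are known to share, its signal cannot be assigned to the short form. No transcript sequences were used here to check these lists.

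The test took a probe if the scanner software called it well above background in both replicates of 1 group or of both. Of the 16 probes 14 were kept, 13 of them above background on all 4 arrays, and at least 1 probe of each of the 8 genes was kept. The 2 probes not kept are the second ones for BCL2 and BOK, and the BCL2L1 probe P100130 was kept through the controls, as only 1 of its 2 embelin arrays was above background. Signals are given on the log2 scale after each array had been shifted to a common 75th percentile, which came to 9.40. Where a gene had several kept probes, the brightest one represents it.

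Across the family the higher signals with embelin lay in MCL1, BOK, BCL2L2 and 1 probe of BCL2A1, while at every kept probe of BCL2, BCL2L1, BAX and BAK1 the log2 fold change lay between -0.32 and 0.28. Of the 14 kept probes 0 were called by limma's moderated test after Benjamini-Hochberg adjustment over the 25975 probes tested, of which 1.17% were called, 0.901% higher and 0.273% lower. The lowest adjusted p among the family's probes was 0.0544. Without adjustment 6 of the 14 had a limma p under 0.05, the 3 MCL1 probes among them, against 18.0% of all probes tested. At the brightest kept probe of each gene, 2 of the 5 survival genes and 1 of the 3 effectors had such a p. Over all genes 18.7% did. The methods' t-test gave 7 of 14 without adjustment, against 14.4% of all probes with a value on every array, and 0 with it. At a change of 2-fold or more with an unadjusted limma p under 0.05, 4 of the 14 probes were higher, 3 of MCL1 and 1 of BOK, and 0 were lower. Over all probes tested 8.34% passed these limits, 4.56% higher and 3.78% lower. The study set the same limits on its own test, and by the methods' t-test 4 of the 14 and 5.4% of all probes passed. The median log2 fold change was 0.25 over the 14 kept probes and -0.05 over all probes tested. With each gene at its brightest kept probe, it was 0.07 over the survival genes, 0.22 over the effectors and -0.06 over all genes. Both embelin arrays lay above both controls in 8 of the 14 probes, where 21.4% of all probes with a value on every array did so, and below them in 1, where 28.3% did, so that 9 of the 14 did not overlap against 49.7% of all probes.

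**Figure D1:**
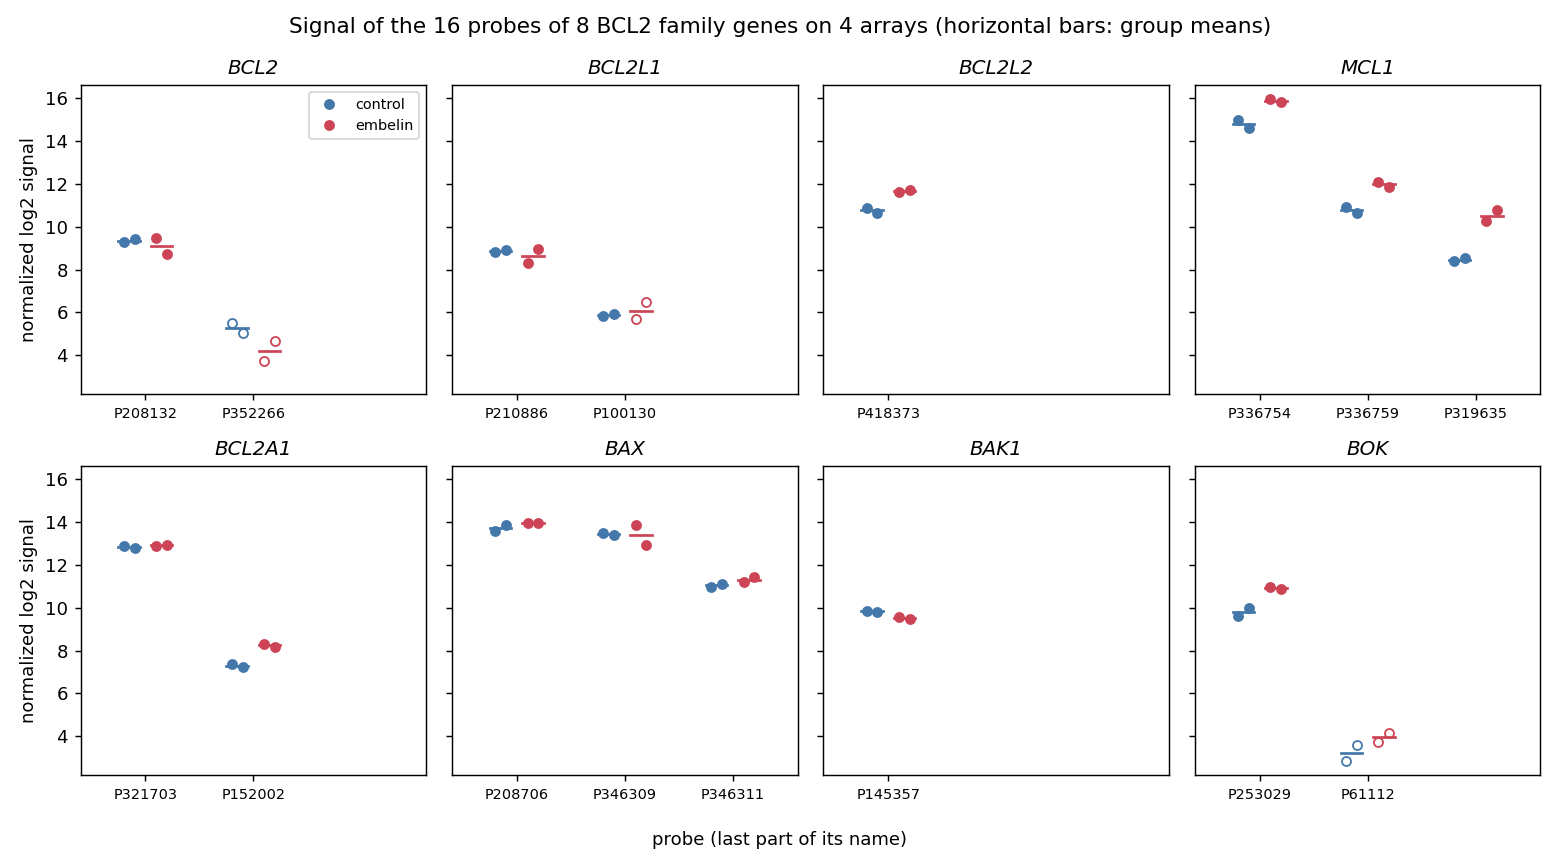
Normalized log2 signal of the 16 probes (vertical axis) by gene and probe (horizontal axis), with a point for each array, a horizontal bar for each group mean, and open points where fewer than 2 arrays of the group were well above background. The 3 probes of MCL1, the single probe of BCL2L2 and the kept probe of BOK show both embelin points above both control points. The same holds for the BCL2A1 probe P152002, the BAX probes P208706 and P346311 and the BOK probe that was not kept.

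MCL1, a survival protein with a fast turnover, had the family's largest difference at a single probe, while at the brightest probe of each gene BOK lay slightly above it. At its brightest probe, P336754, which is listed for both transcripts, the controls read 14.99 and 14.63, and the embelin arrays 15.97 and 15.81. The groups did not overlap, and the embelin arrays lay closer together than the controls. This is a log2 fold change of 1.08, with a standard error of 0.22, or 2.11-fold with a 95% interval of 1.41 to 3.17, and it was not called (adjusted p = 0.114 from limma). The second probe listed for both transcripts, P336759, read 10.94 and 10.63 in the controls and 12.09 and 11.87 with embelin. Here the log2 fold change came to 1.19, with a standard error of 0.22 and an adjusted p of 0.0962 from limma, close to that of the brightest probe.

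At P319635, the probe listed for the long transcript alone, the signal was 8.40 and 8.52 in the controls and 10.27 and 10.78 with embelin. Both embelin arrays were thus well clear of both controls, and the embelin arrays differed from each other more than the controls did. Its log2 fold change of 2.06, with a standard error of 0.25, is 4.17-fold with a 95% interval of 2.62 to 6.64 and was larger in size than 97.4% of all probes tested. It narrowly missed the adjusted threshold (adjusted p = 0.0544 from limma). It was called with normexp background correction (adjusted p = 0.0272 from limma). It was also called with the filter that asked for all 4 arrays (adjusted p = 0.0233 from limma) and with limma's trend and robust options (0.00772). It was not called with quantile normalization (adjusted p = 0.0570 from limma), the deposited table (0.0649) or a block for replicate number (0.0908). Slide position (adjusted p = 0.164 from limma), a block for array background (0.233) and no filter (0.580) gave no call either. Nor did the methods' t-test (adjusted p = 0.263). With any 1 array left out its log2 fold change was 1.80 to 2.32.

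The fold change at the long-transcript probe was set against that at the brightest MCL1 probe within each array, in a limma fit over 8428 pairs of probes of the same gene. This comparison was chosen after the values were seen. The long-transcript probe exceeded the brightest by a further 0.98 on the log2 scale (95% interval 0.01 to 1.95), with an unadjusted p of 0.0484 from limma and an adjusted p of 0.816. None of the 8428 pairs was called after adjustment, and 6.02% had an unadjusted p under 0.05, so the data do not separate the long-transcript probe from the others. The second shared probe differed from the brightest by 0.11 (95% interval -0.28 to 0.50).

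BCL2L2, which encodes BCL-W, a survival protein with a known role in spermatogenesis, was measured by 1 probe. Its signal was 10.89 and 10.64 in the controls and 11.64 and 11.72 with embelin, without overlap between the groups. Embelin over control came to 0.92 on the log2 scale (standard error 0.19), or 1.89-fold with a 95% interval of 1.31 to 2.71, and was not called (adjusted p = 0.123 from limma).

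BCL2A1, an NF-kB responsive survival gene, gave an answer that depended on the probe. At the brighter probe, P321703, the signal was 12.89 and 12.78 in the controls and 12.89 and 12.93 with embelin, and the groups overlapped. The log2 fold change there was 0.07 (standard error 0.18), with a 95% interval of -0.40 to 0.55. At P152002, printed above, the signal was 7.36 and 7.24 in the controls and 8.29 and 8.18 with embelin, without overlap. There the log2 fold change was 0.94, with a standard error of 0.18 and an adjusted p of 0.105 from limma. The files list both probes for NM_004049. Within arrays the dimmer probe exceeded the brighter by 0.87 (95% interval 0.46 to 1.28, unadjusted p = 0.00502 and adjusted p = 0.559 from limma), a difference larger than the spread of the 4 arrays but not called among all pairs. With the mean over both probes the log2 fold change of the gene was 0.51.

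BCL2L1 and BCL2, the founding survival genes, were not shown to differ. For BCL2L1 the probe listed for both of its transcripts, P210886, read 8.83 and 8.91 in the controls and 8.30 and 8.96 with embelin. The embelin arrays lay on either side of the controls, and the log2 fold change was -0.24 (standard error 0.28, 95% interval -1.01 to 0.52). At P100130 the signal was 5.85 and 5.91 in the controls and 5.69 and 6.48 with embelin, a log2 fold change of 0.20 (95% interval -0.66 to 1.07). Without embelin replicate 1 the value at P210886 turned from -0.24 to 0.089, so its direction rests on that array.

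For BCL2 the brighter probe, P208132, is listed for an older cDNA (M13995) and for no RefSeq transcript. It read 9.29 and 9.41 in the controls and 9.49 and 8.72 with embelin, and 1 embelin array lay above and the other below the controls. The log2 fold change was -0.24 (standard error 0.32, 95% interval -1.09 to 0.61), and it turned to 0.14 without embelin replicate 2. The probe for the RefSeq transcript NM_000633, P352266, was above background on 1 of 2 arrays in each group and was not kept. Its signal was 5.49 and 5.05 in the controls and 3.76 and 4.66 with embelin, and no change is given for it. As the intervals of both genes reach past a 2-fold lower level and also above 0, neither gene is shown to be unchanged.

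Among the effectors BOK had the largest difference. BOK is known as an effector that the survival proteins hardly restrain and that is removed by the proteasome. At P253029, listed for NM_032515, the signal was 9.60 and 9.99 in the controls and 10.96 and 10.88 with embelin. The controls differed from each other more than the embelin arrays, and the groups did not overlap. This gave a log2 fold change of 1.13 (standard error 0.22), or 2.19-fold with a 95% interval of 1.46 to 3.29, and was not called (adjusted p = 0.106 from limma). The second BOK probe, P61112, was above background on 0 of 2 control arrays and 1 of 2 embelin arrays, with signals of 2.84 and 3.60 against 3.75 and 4.16, and gives no fold change.

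BAX, an effector and a classical p53 target gene, was bright at all of its 3 probes. At P208706 the signal was 13.58 and 13.85 in the controls and 13.93 and 13.94 with embelin. The embelin arrays lay above the controls, but the group means differed by less than the controls did from each other, and the log2 fold change was 0.22 (standard error 0.20, 95% interval -0.31 to 0.75). The probe with the run of G, P346311, read 10.95 and 11.12 in the controls and 11.21 and 11.42 with embelin, a log2 fold change of 0.28 (95% interval -0.25 to 0.81). At the third probe, P346309, the embelin arrays read 13.88 and 12.93, on either side of controls at 13.50 and 13.37, and the log2 fold change was -0.03 (95% interval -1.03 to 0.96). Against the brightest probe these 2 probes differed by 0.06 (95% interval -0.40 to 0.52) and by -0.25 (-1.43 to 0.93).

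BAK1, which encodes the effector that sits in the mitochondrial membrane of resting cells, was the only gene with both embelin arrays below both controls at a kept probe. At the BCL2 probe that was not kept they lay below as well. Its probe read 9.87 and 9.81 in the controls and 9.57 and 9.47 with embelin. The difference of the means, -0.32 on the log2 scale (standard error 0.18), had a 95% interval of -0.79 to 0.16 and was not called (adjusted p = 0.435 from limma). It ranged from -0.37 to -0.26 with 1 array left out.

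**Figure D2:**
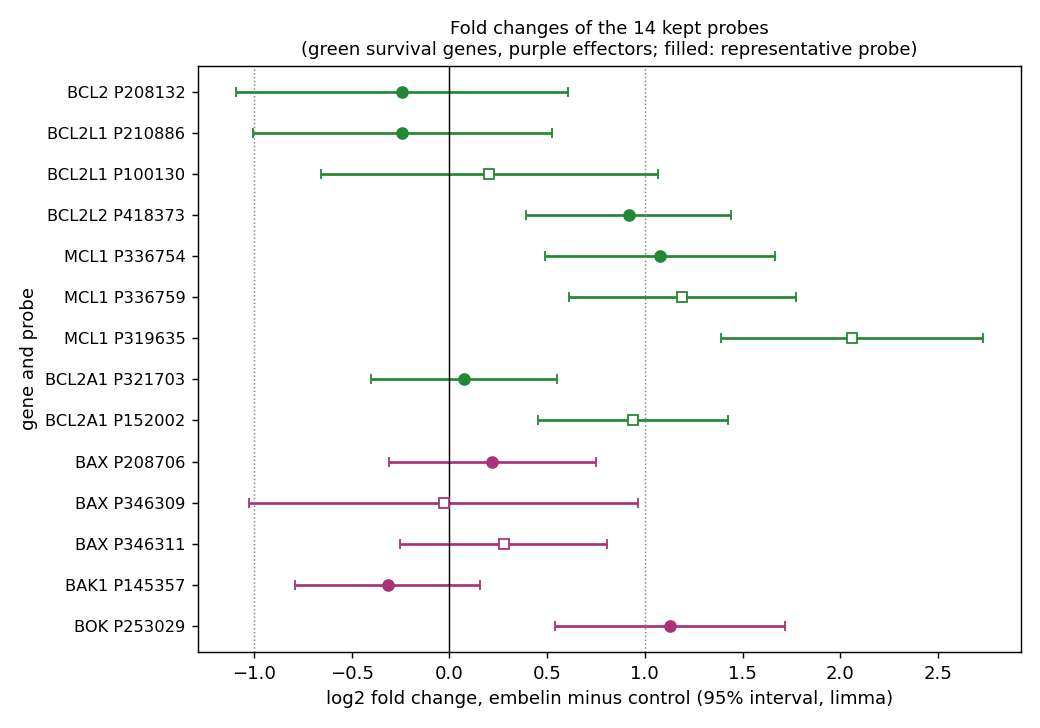
Log2 fold change (embelin minus control, horizontal axis) with its 95% interval from limma for the 14 kept probes (vertical axis), with survival genes in green, effectors in purple, filled points for the probe that represents a gene and dotted lines at 2-fold. The intervals of the 3 MCL1 probes, of BCL2L2, of BOK and of the BCL2A1 probe P152002 lie above 0, and the other 8 include it.

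The balance of an effector and a survival transcript is often read as the ratio of BAX to BCL2. Here it was followed as the difference of the log2 signals within an array, set to 0 at the control mean. Each gene was taken at its brightest kept probe, which for BCL2 is listed for no RefSeq transcript. BAX relative to BCL2 lay at -0.08 and 0.08 in the controls and at 0.08 and 0.85 with embelin, a mean shift of 0.46 that 1 embelin array carried. BAX relative to BCL2L1 lay at -0.10 and 0.10 in the controls and at 0.79 and 0.13 with embelin, and here the other embelin array carried the shift of 0.46. BAX relative to MCL1 lay at -0.32 and 0.32 in the controls and at -0.94 and -0.78 with embelin, a shift of -0.86 in the direction of MCL1 that both embelin arrays shared. With 2 arrays a group, the exact permutation test (two-sided) cannot go below a p of 0.333. This exact test gave 0.667, 0.333 and 0.333 for BCL2, BCL2L1 and MCL1 (0.667, 0.5 and 0.5 after adjustment over the 3 differences).

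**Figure D3:**
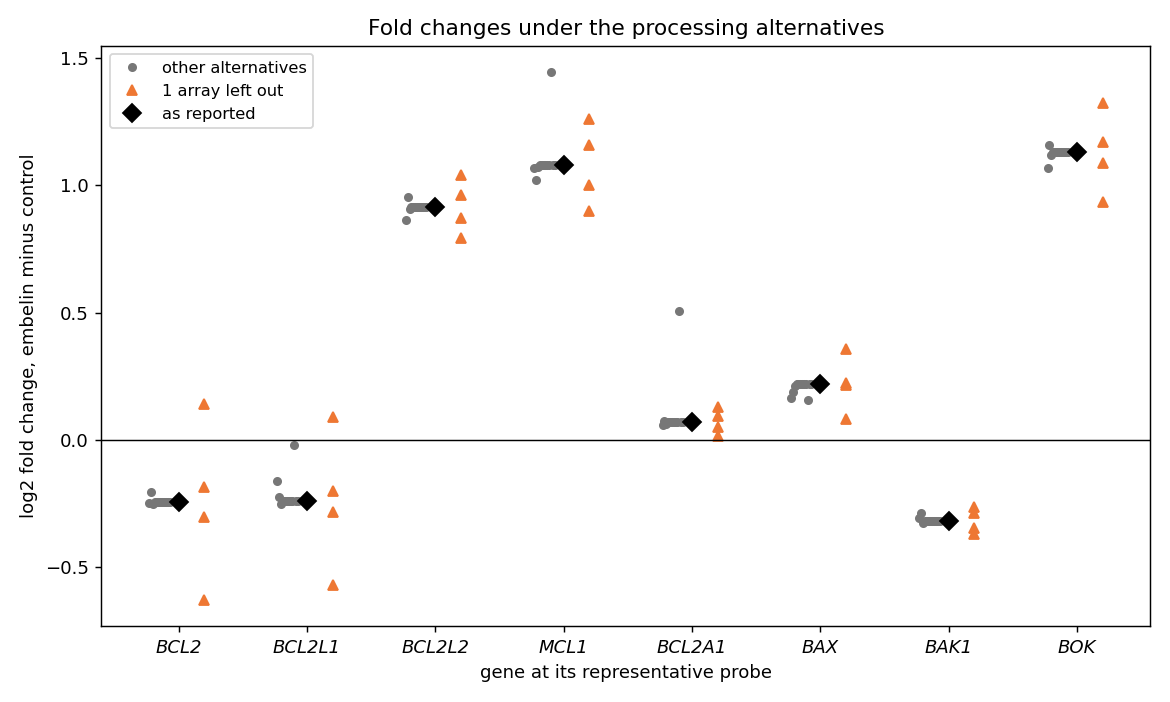
Log2 fold change (embelin minus control, vertical axis) of the 8 genes (horizontal axis) as reported (black diamonds), with 1 array left out (orange triangles) and under the other processing alternatives (grey circles). MCL1, BCL2L2 and BOK stay above 0.79 under all of them, while BCL2 and BCL2L1 cross 0 when 1 embelin array is left out. Other filters, tests and blocks, slide position and 1 probe per gene leave these fold changes as reported, so their grey circles could not move.

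The other genes of the pathway were taken from lists written by hand, each gene at its brightest kept probe, and 1.28% of the 17547 genes or transcripts with a kept probe were called after adjustment. The median log2 fold change over these was -0.06. BH3-only proteins bind the survival proteins or activate BAX and BAK1. Of their 8 genes all were kept and 1 rose, with 0 called lower, and the median was 0.28. Past 2-fold with an unadjusted limma p under 0.05, 2 were higher and 0 lower, and with limma's trend and robust options 2 were called. BIK, whose protein acts from the endoplasmic reticulum, went from 7.91 ± 0.11 in the controls to 10.55 ± 0.08 with embelin (SD, n = 2 each), which is 2.63 higher on the log2 scale, with a standard error of 0.18 and an adjusted p of 0.0279 from limma. PMAIP1 (NOXA), whose protein binds MCL1, lay at 2.48, just short of the adjusted threshold (adjusted p = 0.0538 from limma). BBC3 (PUMA) was at -0.11 at its brightest probe but at 2.24 and 2.45 at its other kept probes, the last of which was called (adjusted p = 0.0298 from limma), so its value depended on the probe. Both were named after their values were seen.

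Of 7 other BCL2 family and BNIP3 genes 4 were kept, and BCL2L10, BCL2L14 and BCL2L15 were not. BNIP3L and BNIP3, which are known for the removal of mitochondria by autophagy and for their response to hypoxia, rose by 2.07 (adjusted p = 0.0420 from limma) and 1.80 (adjusted p = 0.0456) on the log2 scale. The second kept probe of BNIP3L gave the same log2 fold change to 2 decimals. The other 2 kept genes, named after their values were seen, were BCL2L12 at -0.29 and BCL2L13 at 0.02.

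Downstream of BAX and BAK1, 12 genes were followed, among them those of the VDAC channels, cytochrome c (CYCS), APAF1, CASP9 and the apoptosis inhibitor XIAP. All 12 were kept and 0 were called by limma after adjustment, with 1 at an unadjusted p under 0.05 (VDAC2, at 0.52, named after its value was seen), and with limma's trend and robust options 0 were called. Over all genes 18.7% had such an unadjusted p, which is a larger share than 1 of 12 or than 1 of 6 in the next list. Their log2 fold changes ran from -0.21 to 0.95 with a median of 0.10. Of 7 genes for the turnover of the MCL1 protein 6 were kept, among them the ligase genes HUWE1 and FBXW7 and the deubiquitinase gene USP9X. Again limma called 0, 1 had an unadjusted p under 0.05 (BTRC, at -1.01, named after its value was seen, with a second probe at 0.22), 0 were called with the trend and robust options, and the median was -0.20.

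BAX and BCL2A1 were also set beside other targets of the factors known to drive them. Of 20 p53 target genes 1 was called after adjustment, SESN2, which restrains growth signalling under stress and rose by 3.01 on the log2 scale, with a standard error of 0.21 and an adjusted p of 0.0279 from limma. Past 2-fold with an unadjusted limma p under 0.05, 6 were higher and 2 lower, and the median was 0.41, while BAX lay at 0.22. Of 15 NF-kB target genes 1 was called, the adhesion receptor gene ICAM1, at 1.91, with a standard error of 0.19 and an adjusted p of 0.0429 from limma. By the same limits 9 were higher and 3 lower, with a median of 1.14, while over all 17547 genes 8.38% passed in either direction. Among the 9 is CXCL8, named after its value was seen. It was above background on 1 of 2 control arrays, so it was kept only through the embelin arrays. BBC3 and PMAIP1 of the p53 list are also on the BH3-only list. No set test was run, and with limma's trend and robust options 6 of the 20 and 8 of the 15 were called, against 5.51% of all genes.

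**Figure D4:**
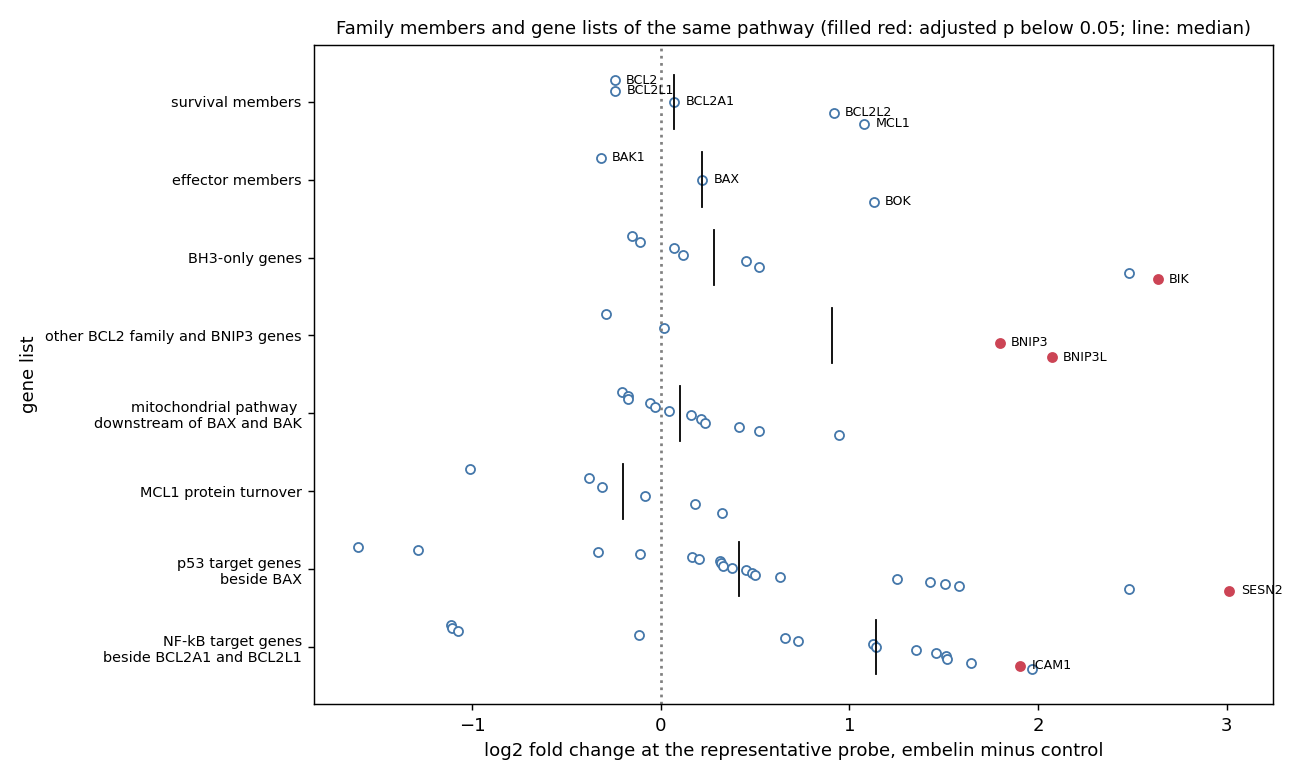
Log2 fold change (embelin minus control, horizontal axis) of each gene at its brightest kept probe, by gene list (vertical axis), with a vertical line at each list's median and filled red points for genes called after adjustment. The 8 family members lie between -0.32 and 1.13, and the called genes are BIK, BNIP3, BNIP3L, SESN2 and ICAM1.

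The arrays themselves differed in the share of probes well above background, a split named array background below. Background intensities are not given here. In control replicate 1 and embelin replicate 2, 66.7% and 66.3% of the probes were well above background, against 49.9% in each of the other arrays, so that each group held 1 array of each kind. Slide positions, taken as the ranks of the 4 arrays by their median spot coordinate, were 4 and 1 for the controls and 2 and 3 for embelin. Between the arrays with the higher share the log2 difference was 0.82 for MCL1, 0.84 for BCL2L2 and 1.28 for BOK at their brightest probes. Between the arrays with the lower share it was 1.34, 1.00 and 0.98. All 11 epithelial and A549 markers, among them KRT8, KRT18, EPCAM and AKR1B10, were above background on all 4 arrays. Their summed linear signal was 853099 and 890674 in the controls and 761888 and 776829 with embelin. Of 3 fibroblast markers DCN was above background on no array and COL1A1 on all 4. The summed signal of the 3 was 104 to 106 in the controls and 665 and 224 with embelin. COL1A1 read 7.56 and 7.69 on the embelin arrays, so it does not account for the higher sum on replicate 1. Its log2 fold change was 1.30 at its brightest probe and 1.76 and 1.83 at the others, the last of which was called (adjusted p = 0.0470 from limma). Of 4 leukocyte markers CD14 and CD68 were above background on all arrays. The 4 summed to 1701 and 2162 in the controls and 2210 and 2115 with embelin. Of 3 endothelial markers none was above background on all arrays, with sums of 64.1 and 37.7 in the controls and 45.3 and 61.2 with embelin. The part of these markers in the results was not tested. In bulk RNA a loss of cells of a type and less RNA per cell cannot be told apart.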

How the data were processed

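The authors deposited 1-colour (Cy3) intensities. Per the file headers Agilent Feature Extraction, version 10.7.3.1, had removed spatial and multiplicative trends within each array and set surrogate values for dim spots, with no scaling from one array to the next. The table of probe values that the authors also deposited is on the same linear scale, neither centred nor scaled (medians 69.5, 58.5, 74.0 and 71.1), differs from the spot averages by over 0.001 on the log2 scale at 97 to 117 probes per array, and served as an alternative. Spots marked as outliers were left out (47, 296, 743 and 87 per array), none was saturated, and each probe took the mean of its other spots. Each array was scaled to a common 75th percentile, as the study's methods name, given a floor of 1 and transformed to log2. Probes above background in both replicates of either group were tested, embelin against control, with limma 3.58.1 (lmFit and eBayes, prior of 2.31 degrees of freedom) in R 4.3.3, with adjustment over 25975 probes.

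The number of arrays limits the precision. Over 22414 probes above background on all arrays, Pearson's r across probes, which are not independent, was 0.981 between controls, 0.982 between embelin arrays and 0.957 to 0.966 between groups. The fit was checked on simulated data, in which it seldom called 2-fold changes. Of 100 changes of 16-fold in a draw it called 68 to 82. So a difference that was not called is not shown to be absent, at 2-fold or at larger sizes. Named genes were all members and, from each list, the called genes with the largest change (at most 3). Some genes of the list downstream of BAX and BAK1 are not reported here, and its counts leave them out. The members and lists were chosen with earlier results of these data known. The fit of differences between probes of a gene was added after the values were seen. Alternatives were normexp (offset 50), quantile normalization, the deposited table, other filters and gene summaries, the methods' t-test, trend and robust options, blocks for replicate number and array background, slide position, and each array left out. No genome coordinates are given, as the files name another build than the RefSeq table used here.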

Additional observations from a re-analysis of the deposited data

How the results depend on the processing

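Of 235 values recomputed under an alternative, 197 kept their direction and their side of the threshold (counts, within 1.5 times). In part of these the direction could not change. Other filters, tests and blocks, slide position and 1 probe per gene left the log2 fold changes of the 8 genes as they were. Other filters also left the differences of BAX from BCL2, MCL1 and BCL2L1 as they were. With 1 array left out BCL2 ranged from -0.63 to 0.14, turning without embelin replicate 2, and BCL2L1 from -0.57 to 0.089, turning without embelin replicate 1, and no other gene changed direction at its brightest probe. Of the other kept probes BAX P346309 (-0.03) ranged from -0.51 to 0.44, turning without control replicate 1 or embelin replicate 2, and BCL2L1 P100130 (0.20) turned to -0.19 without embelin replicate 2. With limma's trend and robust options the log2 fold changes of MCL1 (1.08), BCL2L2 (0.92) and BOK (1.13) were called (adjusted p = 0.0160, 0.0367 and 0.0318 from limma). Called family probes then numbered 5 of 14, while of all 25975 probes tested 741 were called higher and 552 lower. With normexp correction they numbered 1 of 14, where 540 and 277 of 25975 were called. With the filter on all 4 arrays they numbered 1 of 13, where 477 and 294 of 22414 were called. Past 2-fold with an unadjusted limma p under 0.05, 2 of the 8 genes were counted with 1 probe per gene (8.3% of all genes) and 2 with the mean over probes (8.46%), and 3 to 4 probes with 1 array left out (7.64% to 12.2% of all probes).

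Over all probes 234 were called higher and 71 lower. These counts were 540 and 277 with normexp, 148 and 33 with the deposited table, 477 and 294 with the filter on all 4 arrays, and 741 and 552 with the trend and robust options. Fewer were called lower (32) with quantile normalization and more (109) with 1 probe per gene. They were 0 and 0 without a filter, with the methods' t-test, with slide position, with the array background block and with any 1 array left out (0 to 0), with 2872 to 4219 probes at an unadjusted p under 0.05 in these fits. With the replicate number as a block they were also 0 and 0, with 5239 at an unadjusted p under 0.05. The deviations of same-numbered arrays correlated at 0.212 over 2 pairs, so the number is not shown to pair the samples. The causes were not tested. Where 1 array stood for a group, its spread was taken as that of the other group. Shifts of BAX against BCL2, MCL1 and BCL2L1 ranged over 0.08 to 0.85, -1.18 to -0.54 and 0.13 to 0.79 with 1 array left out.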
